A study of Saccharomyces cerevisiae with 4 samples.

Results

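The genes examined were 10 budding yeast genes for inositol and phospholipid synthesis, taken by name from 6002 protein-coding genes on the 16 nuclear chromosomes. They were listed as known targets of the INO80 chromatin remodelling complex together with regulators of those targets. That rule uses no measured value, but the genes were chosen with earlier results of these data known. Arp4, a nuclear actin-related protein shared by INO80, by the remodeller SWR1 and by the histone acetyltransferase NuA4, was mapped in Saccharomyces cerevisiae by chromatin immunoprecipitation and sequencing. The groups were wild-type cells with ARP4-3FLAG (Arp4 fused to a Flag epitope tag, 2 samples) and wild-type cells with no tag (2 samples). All were grown in the rich medium YPD at 30°C to mid-log phase and precipitated with the same Flag antibody. The data used were 1 list of 1430 Arp4 peaks with no values per sample. No value below therefore carries a replicate error, read depth is unknown, and the untagged cells were not analysed here. Because peaks made by Arp4 in INO80, SWR1 and NuA4 cannot be told apart in this list, a peak here marks Arp4 and not a particular complex.

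Yeast makes inositol from glucose 6-phosphate with the enzyme encoded by INO1 and takes it up from the medium with the transporter encoded by ITR1. INO2 and INO4 encode helix-loop-helix proteins that pair on an inositol-sensitive promoter element and activate INO1 and many phospholipid synthesis genes, and OPI1 encodes the repressor that acts on Ino2 when inositol is plentiful. CHO1 makes phosphatidylserine, PSD1 converts it to phosphatidylethanolamine, CHO2 and OPI3 methylate that to phosphatidylcholine, and PIS1 joins inositol to CDP-diacylglycerol to give phosphatidylinositol. INO80 takes its name from mutants that cannot grow without added inositol. RNA levels were not measured in these samples.

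In rich medium, 2 of these 10 genes had an Arp4 peak summit at the promoter or in the body (20%). That was near the 21.9% of all protein-coding genes. OPI3 was the 1 gene of the 10 with a peak summit at its promoter, and ITR1 was the 1 gene with a summit in its body. INO1, INO2, INO4, OPI1, CHO1, PSD1, CHO2 and PIS1 had neither, and no base of any peak touched their promoter windows or genes. A promoter summit is the highest point of a peak, lying between 500 bp before and 100 bp after the annotated gene start. A body summit lies more than 100 bp from both ends of the gene. Promoter summits thus occurred at 1 of 10 genes (10%, exact 95% interval 0.253 to 44.5), where 14.0% of all protein-coding genes had 1 or more. Body summits also occurred at 1 of 10 (10%, same interval), where 10.1% of all protein-coding genes had 1 or more. Both shares lay close to those of all genes, and the intervals, which cover counting error over genes alone, are too wide to separate them from shares several times higher or lower.

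**Figure D1:**
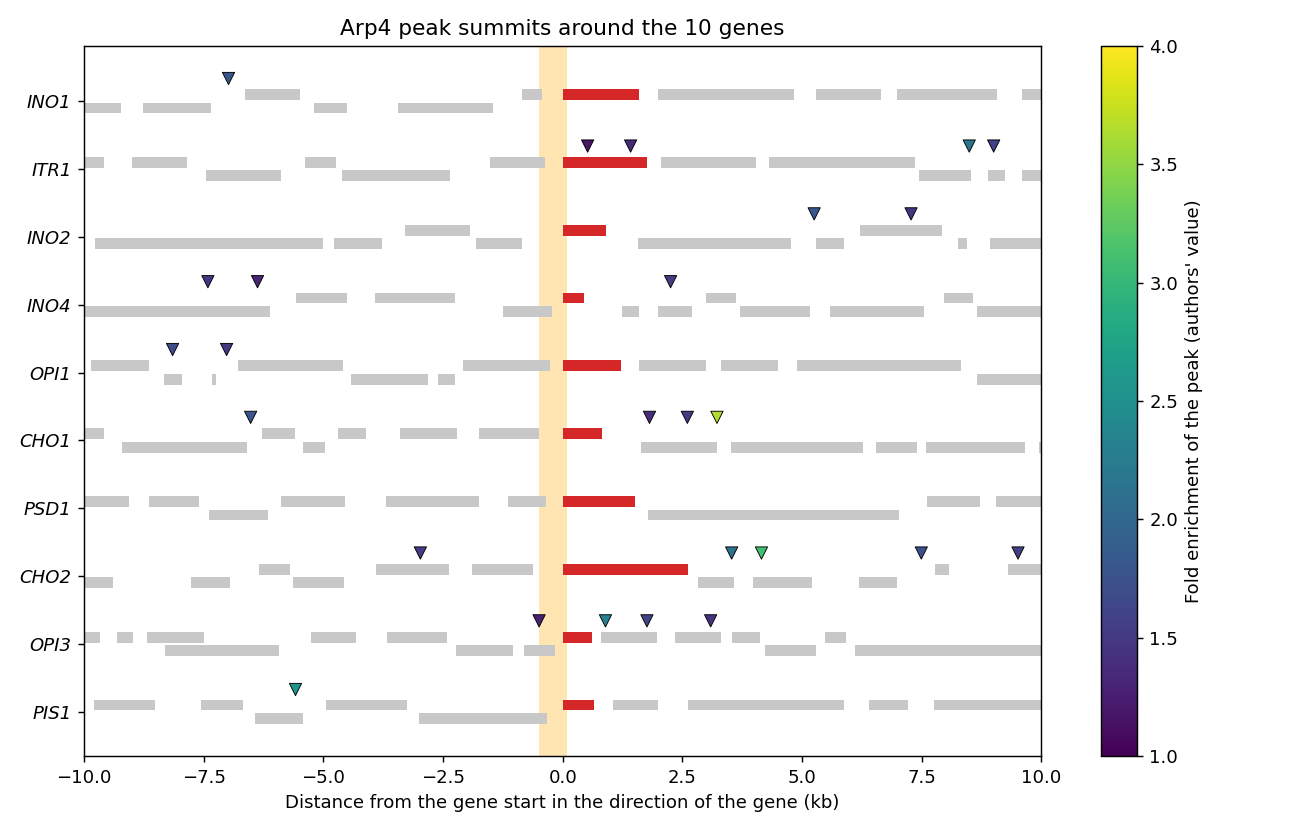
Each line shows 1 gene (red) with its neighbours (grey; upper bars run in the same direction as the red gene, lower bars in the opposite direction), by distance in kb from its start. Triangles are peak summits coloured by the authors' fold enrichment, and the yellow band is the promoter window: summits fall in it at OPI3 and in the gene itself at ITR1, and PSD1 has none in the range shown.

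None of the 3 regulatory genes had a promoter or body summit, as was the case for 4686 of all 6002 protein-coding genes. From the INO2 start, the nearest summit was 5255 bp away, past the end of the gene, between the genes DPB4 and KIN1 (chromosome IV, 693742 to 694376, fold 1.82). The fold is the authors' enrichment at the summit over the caller's background, a linear ratio used here to rank peaks within the list. From the INO4 start the nearest summit was 2255 bp away, also past its end, inside SHR5 (chromosome XV, 109246 to 109942, fold 1.53). For OPI1 it was 7023 bp upstream, beside the urea transporter gene DUR3 (chromosome VIII, 74389 to 74918, fold 1.47). The median distance over all protein-coding genes was 2717 bp, so INO4 lay nearer to a summit than that, and INO2 and OPI1 farther.

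Of the 2 genes that supply inositol, INO1 had no peak nearby and ITR1 had 2 weak ones inside it. The nearest summit to the INO1 start lay 6988 bp upstream, between SMT1 and IDS2 (chromosome X, 142866 to 143089, fold 1.80, −log10 q of 13.5). On the other side the next summit was 12619 bp away, between CIS3 and FAR1. A nearer summit was found at 78.2% of all protein-coding genes, so INO1 lay in a long stretch of chromosome X without called Arp4 peaks.

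In ITR1, the first summit was 521 bp from the start, at 29.7% of the gene's length (chromosome IV, 1444589 to 1444989). Its fold was 1.17 and its −log10 q was 2.46. The second was 1419 bp from the start, at 80.9% of the length (chromosome IV, 1443796 to 1444222), where the fold was 1.35 and −log10 q was 7.16. Together these peaks covered 47.2% of the gene. Both belonged to the weak end of the list: 99.2% of all 1430 peaks had a higher fold than the first and 87.0% a higher fold than the second. The median fold of all 671 body peaks was 1.53. The ITR1 promoter itself had no summit, and the next one upstream was 14348 bp away, inside GMC1.

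Among the 5 phospholipid enzyme genes, OPI3 had a peak at the outer edge of its promoter window. The summit lay 493 bp upstream of the start, just inside the 500 bp limit, and the peak (chromosome X, 573249 to 573680, 432 bp wide) reached 1.28-fold enrichment at a −log10 q of 3.98. No base of the peak lay in the gap between OPI3 and its upstream neighbour. That divergent neighbour, MOG1, which encodes a partner of the Ran-type GTPase of nuclear transport, begins 159 bp upstream of OPI3. The whole peak was inside MOG1, with its summit 333 bp from the MOG1 start, and it also counted as a body summit of MOG1. Of the 659 different peaks at promoters of protein-coding genes, 27 (4.10%) had a fold as low as this or lower. The next gene downstream in the same direction, NPA3, which acts in the nuclear import of RNA polymerase II, held a stronger summit of fold 2.31, 894 bp from the OPI3 start.

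CHO1 and CHO2 had peaks in neighbouring genes but none of their own. The nearest summit to CHO1 was 1814 bp from its start, past its end and inside GCD11, the gene of a translation initiation factor subunit (chromosome V, 206418 to 206797, fold 1.38). The strongest summit within 5 kb of CHO1, 3224 bp away on the same side, had a fold of 3.64. The nearest to CHO2 was 2974 bp upstream, inside CYS4, which encodes cystathionine beta-synthase (chromosome VII, 799348 to 799721, fold 1.52). Past the CHO2 end, 3531 bp from its start, a summit inside MTR3 had a fold of 2.12, and another at 4154 bp had 3.09. The high folds near these enzymes thus belonged to peaks kilobases from their starts.

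PIS1 and PSD1 were farther from any peak. The nearest summit to PIS1 was 5593 bp upstream, inside RPC40, the gene of a subunit shared by RNA polymerases I and III (chromosome XVI, 746206 to 746835, fold 2.54). The nearest to PSD1 was 13435 bp upstream, between YNL162W-A and the ribosomal protein gene RPL42A (chromosome XIV, 330948 to 331585, fold 3.75), and on the other side the next was 13965 bp away, inside MRPL22. Of the 10 genes PSD1 was the farthest from its nearest summit, and 92.3% of all protein-coding genes had a nearer summit than PSD1.

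Over all 10 genes, the distance from the start to the nearest summit ranged from 493 to 13435 bp with a median of 4115 bp, where the median over all protein-coding genes was 2717 bp. A summit within 1 kb was found at 2 of 10 genes, OPI3 and ITR1, and at 30.9% of all genes. No summit at all lay within 5 kb of the start of 5 of 10 genes (INO1, INO2, OPI1, PSD1 and PIS1), and the same was true of 31.6% of all genes. Within that distance OPI3 had 4 summits, CHO1 and CHO2 had 3 each, ITR1 had 2 and INO4 had 1. The distances were thus somewhat longer than over all genes, with no test of that difference, since the 10 genes were hand-picked and are not replicates. For peaks at or above the median fold the medians were closer, 6290.5 bp for the 10 genes and 5928 bp for all genes.

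**Figure D2:**
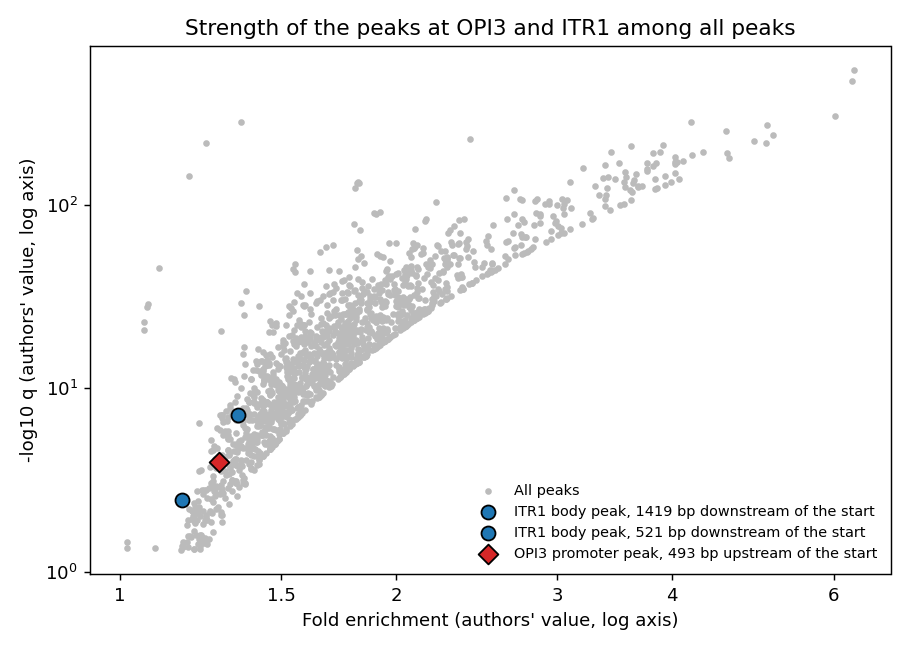
Each grey point is 1 of the 1430 peaks, by the authors' fold enrichment and −log10 q, both on log axes. The OPI3 promoter peak (fold 1.28) and the ITR1 body peaks (1.17 and 1.35) lie at the weak end of the list.

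The layout of the 10 genes was also compared with that of all genes. The upstream neighbour was divergent at 4 of 10 genes (INO2, INO4, OPI3 and PIS1), against 52.0% of all protein-coding genes. The upstream intergenic gap ranged from 159 bp at OPI3 to 846 bp at INO2, with a median of 366.5 bp, against 448 bp over all genes. Median gene length was 1065 bp against 1200 bp. At 7 of 10 the gap was shorter than 500 bp, so that the promoter window reached into the upstream neighbour, as at OPI3.

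The rest of the pathway was described with 65 other genes in 7 groups. Promoter summits occurred at 9 of 65 (13.8%, exact 95% interval 6.53 to 24.7), next to the 14.0% of all genes. Body summits occurred at 2 of 65 (3.08%, interval 0.375 to 10.7), below the 10.1% of all genes, which the interval still included. When summits anywhere in the gene counted, 9 of 65 had one, where 15.2% of all genes did. Their 9 promoter peaks had folds of 1.61 to 2.27 with a median of 1.81, each above the 1.28 at OPI3. The median over all promoter peaks was 1.86.

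CDP-diacylglycerol is the precursor that the CHO1 and PIS1 enzymes use. Genes that make or turn over it or phosphatidic acid had promoter summits at 4 of 14 (28.6%, interval 8.39 to 58.1, all genes 14.0%). These were DGK1, encoding diacylglycerol kinase (fold 2.27, 30 bp inside the gene), and SLC1, encoding an acyltransferase of phosphatidic acid synthesis (2.16, 65 bp inside). The others were CDS1, the CDP-diacylglycerol synthase gene (1.90, 18 bp inside), and the phosphatidate phosphatase gene APP1 (1.66, 414 bp upstream). The SLC1 summit also lay in the promoter window of LHP1, and the APP1 summit in that of the divergent gene YNL095C.

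The Kennedy pathway makes phosphatidylcholine and phosphatidylethanolamine from choline and ethanolamine. Its genes had a promoter summit at 1 of 9 (11.1%, interval 0.281 to 48.2, all genes 14.0%), the ethanolamine kinase gene EKI1 (1.67, 66 bp inside). The same group held both genes with body summits. HNM1, the choline permease gene, had summits 370 and 1139 bp from its start with folds of 1.33 and 1.44. URA7, encoding a CTP synthase, had them at 368 and 1141 bp with folds of 1.84 and 1.76. Like ITR1, each had 2 body summits, spaced 769 bp in HNM1, 773 bp in URA7 and 898 bp in ITR1. Of the 609 protein-coding genes with a body summit, 75 (12.3%) had at least 2. The 3 were compared for this after their values had been seen.

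Genes of phosphoinositides and inositol phosphates had a promoter summit at 2 of 12 (16.7%, interval 2.09 to 48.4, all genes 14.0%). These were LSB6 (1.81, 460 bp upstream) and MSS4 (1.76, 4 bp inside), which encode lipid kinases that act on the product of PIS1 and its derivatives. The LSB6 summit was shared with the divergent gene GSH1. Of 10 other genes that act on INO1 regulation, 2 had a promoter summit (20%, exact 95% interval 2.52 to 55.6, all genes 14.0%). The other 8 had neither kind. The 2 with a promoter summit were RPD3, encoding a histone deacetylase (2.15, 50 bp inside), and UME6, encoding the DNA-binding repressor that recruits it (1.61, 32 bp upstream). UME6 and MSS4 are divergent neighbours with a peak each. No gene had a promoter or body summit among 9 genes of cardiolipin synthesis and the second phosphatidylserine decarboxylase (exact upper limit 33.6% for either), among 8 of phospholipid turnover and transfer (36.9%), or among the 3 further inositol genes ITR2, INM1 and INM2 (70.8%). These limits all lie above the 14.0% (promoter) and 10.1% (body) of all genes, and 4686 of all 6002 protein-coding genes had neither. Groups this small thus cannot be separated from all genes.

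**Figure D3:**
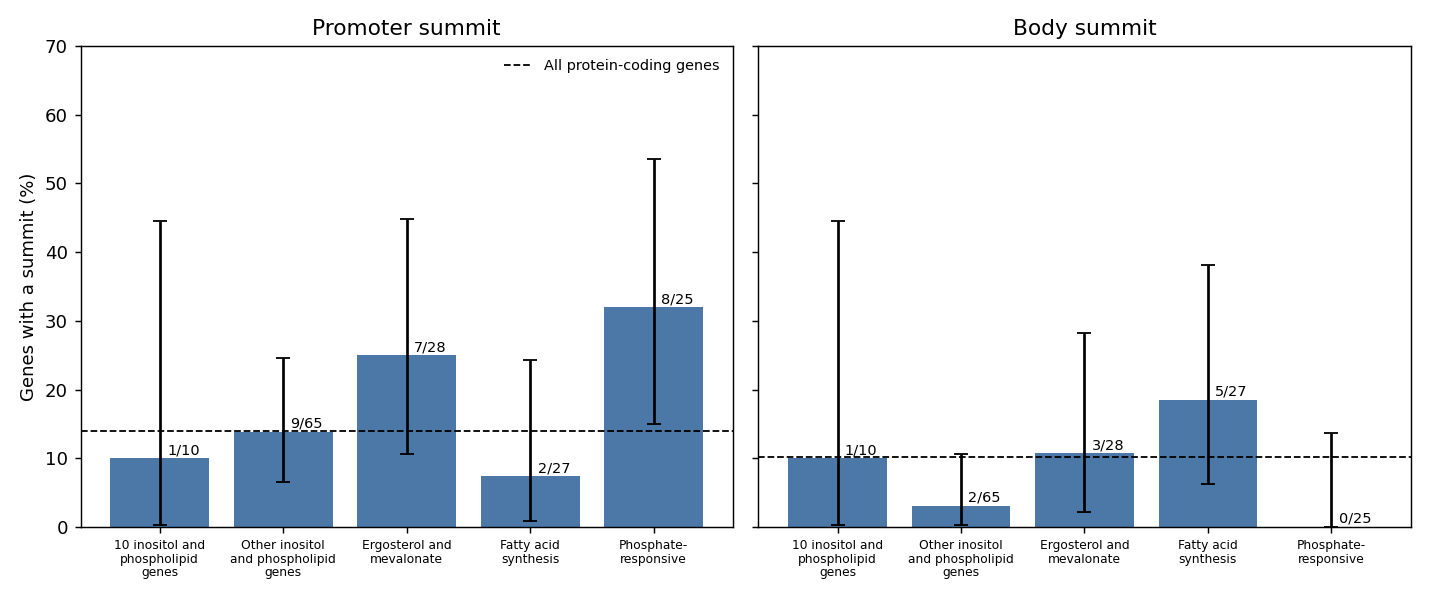
Bars give the share of genes with an Arp4 promoter summit (left) or body summit (right) in 5 gene lists, with exact 95% binomial intervals and counts. The dashed lines mark all protein-coding genes (14.0% and 10.1%), which lie within the intervals of the 10 genes in both panels.

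Of 3 lists set beside these genes, the ergosterol and mevalonate genes had a promoter summit at 7 of 28 (25%, exact 95% interval 10.7 to 44.9), the fatty acid genes at 2 of 27 (7.41%, 0.910 to 24.3) and the phosphate-responsive genes at 8 of 25 (32%, 14.9 to 53.5). Body summits were found at 3 of 28 (10.7%, 2.27 to 28.2), 5 of 27 (18.5%, 6.3 to 38.1) and 0 of 25 (0 to 13.7). Each of these body intervals included the 10.1% of all genes. The body window is longer in a longer gene, and the shares were not adjusted for this. Median gene lengths in the 3 lists were 1345.5, 2010 and 1680 bp, against 1200 bp over all genes. For promoter summits, the 14.0% of all genes lay within the ergosterol and fatty acid intervals and just below the phosphate interval. The interval of the 10 genes (0.253 to 44.5) is so wide that overlap with it cannot separate the lists. No test of the differences between lists was made. The fatty acid synthase genes FAS1 and FAS2 had body summits and none at the promoter, as had ITR1. Most genes with a body summit lacked a promoter summit, as did most protein-coding genes. Of the 609 genes with a body summit, 132 also had a promoter summit, a larger share than the 14.0% of all genes. FAS1 had 5 body summits, with folds of 1.37 to 1.73, and FAS2 had 5, with folds of 1.49 to 1.78. ACC1, encoding acetyl-CoA carboxylase, had 1, with a fold of 1.38. The highest body fold of that list was 2.18, at the desaturase gene OLE1. FAA4, an acyl-CoA synthetase gene, had a body summit of 1.81 and a promoter summit of 1.80. The membrane-bound activator gene MGA2 had a promoter summit of 1.69, which also lay in the promoter window of DAL3.

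Promoter folds in the ergosterol list were highest at NCP1 (2.35), ERG6 (2.08) and ERG3 (2.06). ERG5 and ERG27 (1.77 each), ERG4 (1.71) and ERG13 (1.505) followed. Body summits were at ERG25 (1.64), at ERG3 (1.39), which thus had both kinds, and at ERG11 (1.33). Most promoter summits of this list were not at the ergosterol gene alone. Those of NCP1, ERG3 and ERG4 also lay in the promoter windows of SRB2, SPT8 and PDR1. The ERG6 summit lay between MIN4 and YAP1, in the windows of both. The ERG27 summit was inside MIM2 and in the windows of MIM2 and ICT1, and the ERG13 summit was inside PGA3. In the phosphate list promoter folds were highest at the activator genes PHO4 (1.81) and PHO2 (1.66). PHO8 (1.59), PHO91 (1.51), PHO86 (1.46), VTC1 (1.38), SPL2 (1.27) and the transporter gene PHO84 (1.19) followed. The PHO91 and SPL2 summits also lay in the promoter windows of YNR014W and ARO9. Those of PHO8, PHO4 and PHO86 were inside CWC21, YFR035C/YFR035W-A and YJL118W. The PHO84 summit was inside YNCM0001W/YML122C, and its −log10 q of 1.35 was near the lowest of the list. Only the PHO2 and VTC1 summits lay inside the phosphate gene itself. The OPI3 promoter fold of 1.28 was below those of the 7 ergosterol and 2 fatty acid genes, and above those of SPL2 and PHO84.

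Where a promoter summit was present, its position differed between lists. Of the 9 other pathway genes with a promoter summit, in 6 it was at most 100 bp past the start (66.7%, against 31.9% of all 839 genes with a promoter summit) and in 2 more than 200 bp upstream (22.2%, against 59.1%). In the 7 ergosterol genes the summit was always upstream, from 290 bp at ERG4 to 451 bp at ERG6, and the OPI3 summit at 493 bp was farther out than any of these. The zones were drawn after the positions had been seen, and no test was made.

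**Figure D4:**
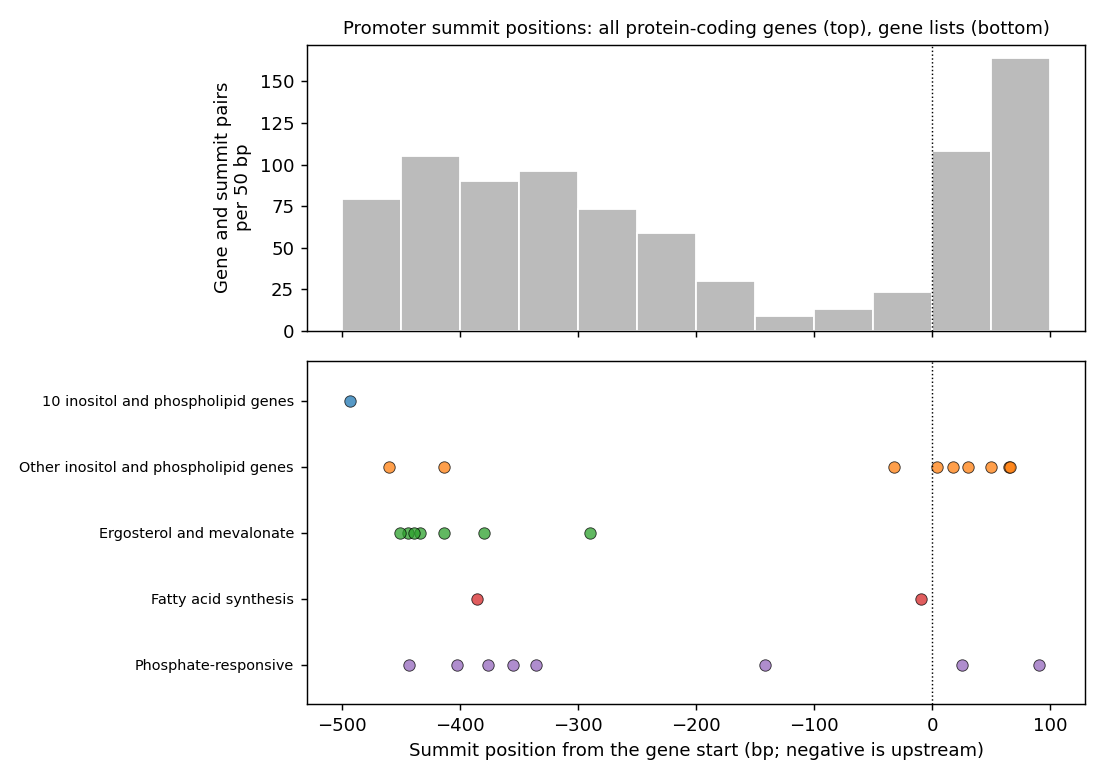
The upper panel counts promoter summits of all protein-coding genes in 50 bp bins by distance from the gene start (negative is upstream), with few just upstream of the start. In the lower panel each point is 1 promoter summit of a gene in the list named at the left: OPI3 is at the far upstream edge, and most other inositol and phospholipid genes are just inside the start.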

How the data were processed

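The 4 libraries were grouped by the genotype in their titles. The submitters' processing notes name MACS2, SAMtools 1.4, BWA 0.7.15-r1140 and fastp 0.21.0. The sources used here do not give the genome build, control, threshold or pooling. The authors deposited 1 peak list without a header. Its fold enrichment is a ratio, and its −log10 q is the authors' (lowest 1.31). The deposited score was not used. Depth is unknown.

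Peak positions are printed counted from 1. Genes came from the RefSeq R64 table, with strand read from systematic names and no gene coordinates printed. All 155 list names matched. As a check of the build, 48 of 275 tRNA genes lay within 100 bp of a summit, and 4 to 13 did once summits were shifted by 200 to 1000 bp.

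The members, lists and windows were chosen with earlier results of these data known. All members were named, with genes sharing their summits, the nearest peaks, and up to 8 genes per other list by fold. No test was run. Exact intervals are Clopper-Pearson. Assignment was tested on simulated data. Alternatives covered windows, thresholds, assignment and peak width. Promoter motifs were planned but not analysed here. Python 3.11.15, numpy 2.4.6, pandas 2.3.3, scipy 1.17.1 and matplotlib 3.10.9 were used.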

Additional observations from a re-analysis of the deposited data

How the results depend on the processing

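The OPI3 promoter summit was kept with a window from 1000 bp upstream, with any peak base counted and with peaks under 1000 bp wide. The count of the 10 genes with a promoter summit was 0 with a window from 250 bp upstream to the start (2.23% of all genes), with summits assigned to the nearest start alone, here that of MOG1 (9.98%), for peaks at or above the median fold (9.88%), and for a −log10 q of at least 10 (11.3%). The ITR1 body summits were kept when the whole gene counted, with any peak base and with narrower peaks, and the count was 0 under both stricter thresholds (3.43% and 6.03% of all genes). Counts of 0 of 10 are near these shares. The median distance to the nearest summit was 6290.5 bp for peaks at or above the median fold, where all genes had 5928 bp. The other 2 alternatives moved it by less than 1.5 times. It was 5424 bp for a −log10 q of at least 10 (all genes 4257 bp) and 3905.5 bp to the nearest peak edge (2504 bp).

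Of the 65 other genes, 15 had a promoter summit in the wider window and 15 when any peak base counted (23.7% and 24.2% of all genes), and 1, UME6, with the narrow window (2.23%). Body summits were at 9 when the whole gene counted (15.2% of all genes), 10 with any peak base (17.2%), and 1, URA7, under each stricter threshold (3.43% and 6.03%). A place without a peak has no value in this list, so enrichment below the authors' threshold is not detectable. No paired analysis was possible because the list holds no values per sample.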
